A study of Mus musculus with 3 samples.

Results

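Bone marrow-derived macrophages (BMDMs) of C57BL/6J mice, grown from femur and tibia marrow with M-CSF, were stimulated for 20 h and their RNA was hybridized to 1 array per condition. The 3 conditions were CpG, a DNA ligand of Toll-like receptor 9 (TLR9), IFN-γ together with αIL-10R, a blocking antibody against the IL-10 receptor (labelled IFN-g+IL-10RB), and all of these agents together (Triple). The genes described here were chosen by their measured levels. Each had a level in IFN-γ + αIL-10R that was at least 2 log2 units (4-fold) above both Triple and CpG in the authors' log2 table, on a probe for a RefSeq mRNA that was well above background in IFN-γ + αIL-10R. Of 11942 genes tested, 119 met this rule, which is 0.996% of them. The rule used all 3 values of every gene, so the differences between the arrays are given as a description of the genes chosen and carry no test.

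IFN-γ binds its receptor, activates the kinases JAK1 and JAK2, and turns on GTPases, antigen presentation, chemokines, and complement genes in macrophages. GAS and ISRE are the DNA elements through which interferons act on their target genes. TLR9 signals through MyD88 and NF-κB, and it changes the expression of many receptors on the macrophage surface.

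Each condition had 1 array, so no difference has a replicate check and no p-value is given. There was no array of unstimulated BMDMs. A gene raised by IFN-γ + αIL-10R and lost in Triple therefore cannot be told apart from a gene of resting BMDMs that was low wherever CpG was present. αIL-10R was in both arrays that had IFN-γ, and its part cannot be told apart from that of IFN-γ. In these bulk samples, fewer cells of a type and less RNA per cell also cannot be told apart. The processed signal, an intensity in arbitrary units after background subtraction, was well above background at 44.4% to 46.0% of the spots, and no spot was saturated. Of a fixed list of macrophage markers, 10 of 10 genes on the array were well above background in all 3 arrays.

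The working name of these genes calls them IFN-γ genes lost with CpG, but the best known IFN-γ genes were not among them. Of 52 canonical IFN-γ response genes on the array, 0 were members. The list does not hold Gbp1, a known IFN-γ-inducible GTPase that was a member. Of these 52 genes, 43 were more than 2-fold higher in IFN-γ + αIL-10R than in CpG, where 3.8% of all genes were. Against Triple, however, 1 of the 52, the class II regulator Ciita, was more than 2-fold higher (6.94% of all genes) and 11 were more than 2-fold lower (4.36% of all genes). The median difference of the list was 2.12 log2 units against CpG and -0.32 against Triple, beside 0.19 and -0.02 over all 19983 genes. The 3 list genes with the largest difference from CpG were Cxcl9, a chemokine for activated T cells (14431 in IFN-γ + αIL-10R, 39.4 in CpG, and 230855 in Triple), and the GTPases Gbp4 (29413, 136, and 70865) and Gbp8 (3258, 38.6, and 1840). MHC class II genes lay between: 11 of 13 were more than 2-fold above CpG, 4 (H2-DMa, H2-DMb1, H2-DMb2, and Ciita) were more than 2-fold above Triple, and 0 were members. The members are therefore called by their rule below: genes highest in IFN-γ + αIL-10R.

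**Figure D1:**
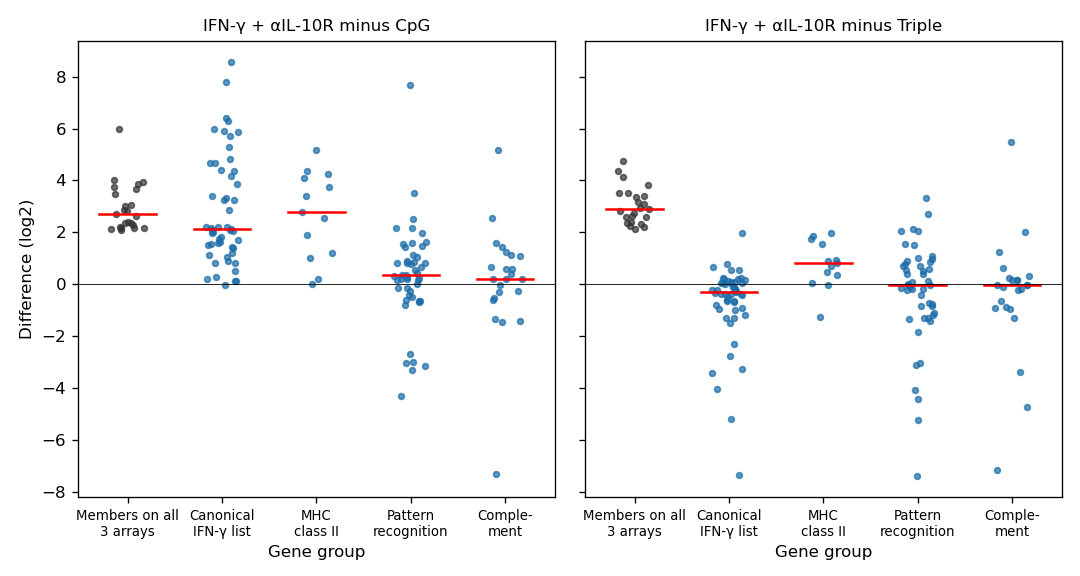
Difference of IFN-γ + αIL-10R from CpG (left) and from Triple (right) on the log2 scale, 1 point per gene, for the 23 members measured on all 3 arrays without an outlier mark and for 4 gene lists; red lines are medians. The members stand above 2 on both sides by their rule, whereas the canonical IFN-γ list has a median of 2.12 on the left and -0.32 on the right.

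Promoter sequences are shown for 5 members that differ in pattern and carry a motif of the IFN-γ pathway. RefSeq promoter windows (GRCm38.p6, 250 bases before to 50 after a transcript start) were found for 92 of the 119 members, 110 windows in all. The GAS letters TTCNNNGAA, which read the same on both strands, were in 11 of these windows and in 8.30% of all 32851 windows. The ISRE, searched on both strands as 2 copies of GAAA that are 2 bases apart, was in 8 of the 110 and in 3.44% of all windows. Under 80% of the members had a window, so these counts say nothing about the members as a whole. The 250 bases before the start are printed 5′ to 3′ on the gene's strand, with GAS and ISRE matches in capitals. A match is a match of letters and not a shown binding site.
Gbp1 (Gbp2b), chr3:142594597-142594846, + strand: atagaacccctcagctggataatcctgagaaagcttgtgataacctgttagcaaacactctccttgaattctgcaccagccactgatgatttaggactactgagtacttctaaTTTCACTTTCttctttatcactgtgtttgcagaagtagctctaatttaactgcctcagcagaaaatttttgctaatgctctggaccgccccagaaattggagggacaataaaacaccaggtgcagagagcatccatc
Tnfsf13b, chr8:10006383-10006632, + strand: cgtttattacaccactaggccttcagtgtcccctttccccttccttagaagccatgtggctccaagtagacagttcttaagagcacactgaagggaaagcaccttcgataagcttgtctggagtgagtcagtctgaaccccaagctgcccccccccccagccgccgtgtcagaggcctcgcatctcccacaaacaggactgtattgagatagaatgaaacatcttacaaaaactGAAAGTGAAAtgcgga
Rab19, chr6:39381103-39381352, + strand: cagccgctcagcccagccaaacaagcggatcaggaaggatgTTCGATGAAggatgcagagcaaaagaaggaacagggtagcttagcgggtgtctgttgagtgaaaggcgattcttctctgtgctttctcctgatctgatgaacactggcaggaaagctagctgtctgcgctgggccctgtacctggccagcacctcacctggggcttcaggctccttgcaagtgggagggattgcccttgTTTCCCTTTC
Il12rb2, chr6:67376189-67376438, - strand: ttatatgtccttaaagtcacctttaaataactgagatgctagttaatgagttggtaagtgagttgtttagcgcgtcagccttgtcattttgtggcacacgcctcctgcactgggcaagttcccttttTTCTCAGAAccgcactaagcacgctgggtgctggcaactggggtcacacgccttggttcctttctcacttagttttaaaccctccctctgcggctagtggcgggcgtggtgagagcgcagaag
Tlr11, chr14:50357664-50357913, + strand: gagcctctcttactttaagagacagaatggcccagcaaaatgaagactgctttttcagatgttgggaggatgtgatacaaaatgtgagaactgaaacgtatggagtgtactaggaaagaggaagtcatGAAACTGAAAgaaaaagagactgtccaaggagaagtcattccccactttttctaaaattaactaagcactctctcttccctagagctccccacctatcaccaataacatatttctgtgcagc
The ISRE match of Gbp1 lay 137 to 128 bases before the start, that of Tnfsf13b 16 to 7 bases, and that of Tlr11 122 to 113 bases. Rab19 held a GAS match 209 to 201 bases and an ISRE match 10 to 1 bases before the start. Il12rb2 held a GAS match 123 to 115 bases before it. Arhgap15, Asgr2, Itga3, and Amica1 also held an ISRE match in the part before the start.

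Most members were low signals. Well above background on all 3 arrays were 24 members, on IFN-γ + αIL-10R and Triple 10, on IFN-γ + αIL-10R and CpG 5, and on IFN-γ + αIL-10R alone 80. Where a signal was not well above background, the lowest signal of the array that was took its place if higher (23.8 in CpG, 26.7 in IFN-γ + αIL-10R, and 26.3 in Triple), and the fold given is then a lower bound. Folds are on the processed signal after each array was scaled by its 75th percentile. Spots of 1 probe repeated on an array varied by 0.0681 to 0.0956 (SD, log2), which covers the spot and not the culture. Over the members measured, the median difference was 2.15 log2 units from Triple and 2.20 from CpG.

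**Figure D2:**
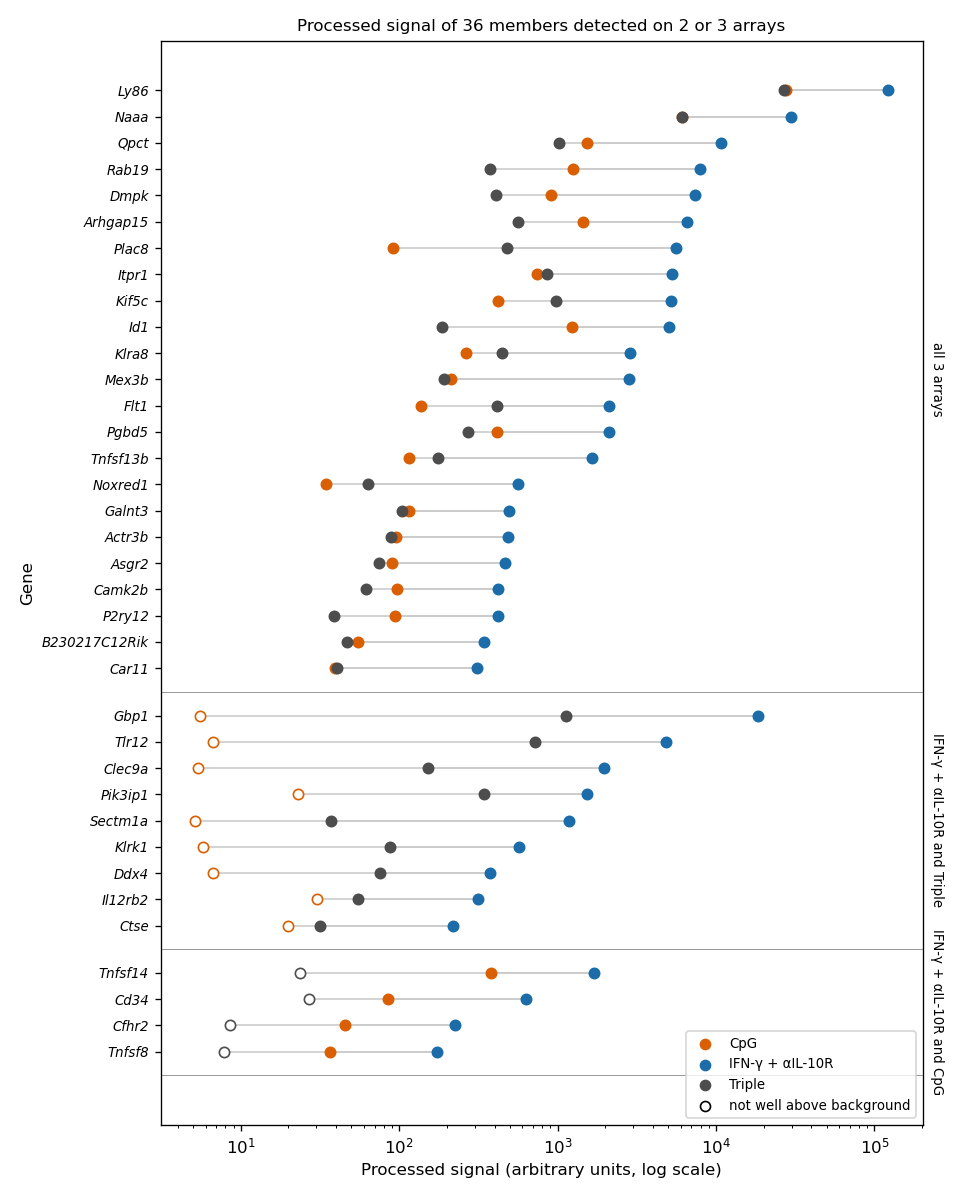
Processed signal (log scale) of 36 of the members well above background on 2 or 3 arrays, 1 row per gene and 1 point per array, open where the signal was not well above background; Zfpm1, whose spot had an outlier mark, is left out. Ly86 is the brightest at 121780 in IFN-γ + αIL-10R, and the signals of Gbp1, Tlr12, and Clec9a in CpG lie at background.

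Among interferon-inducible genes, Gbp1 (now Gbp2b), a guanylate-binding GTPase that acts against intracellular microbes, had a signal of 18472 in IFN-γ + αIL-10R, 1127 in Triple, and 5.56 in CpG. It was 16.0-fold below IFN-γ + αIL-10R in Triple and at least 789-fold below it in CpG. A second probe of Gbp1 gave 15080, 930, and 6.67, the same order. Gbp1 was thus still at least 49.4-fold higher in Triple than in CpG. Sectm1a, a protein with a secreted and a transmembrane form, gave 1182 in IFN-γ + αIL-10R, 37.4 in Triple, and 5.17 in CpG, and it was 30.8-fold higher than in Triple. Plac8, a small cysteine-rich protein of myeloid cells, gave 5604, 481, and 90.9, so that Triple was 5.51-fold above CpG. Its second probe gave 419, 69.4, and 22.1 in the same order. Ifi44l, the only member on the fixed list of type I interferon antiviral genes (1 of 45), was dim at 63.4 in IFN-γ + αIL-10R, 6.80 in Triple, and 7.23 in CpG, so it was at least 2.35-fold above Triple. Only the first signal was well above background, and the probe of Ifi44l lay in row 2 of the array, in a stretch described below.

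Pattern recognition receptors gave 3 members of the 48 on the array. Tlr12, an endosomal receptor for profilin of parasites, had a signal of 4834 in IFN-γ + αIL-10R, 717 in Triple, and 6.70 in CpG. It was 6.57-fold higher in IFN-γ + αIL-10R than in Triple, and Triple stood at least 31.4-fold above CpG. Tlr11, its relative that also binds profilin, was well above background in IFN-γ + αIL-10R alone, with 269 there, 6.35 in Triple, and 11.4 in CpG. Both probes lay in rows 37 and 33 of the array, a stretch that is described below. Ly86 (MD-1), the partner of the receptor CD180 at the surface, was the brightest member without an outlier mark at 121780 in IFN-γ + αIL-10R, and it was 26848 in Triple and 27477 in CpG. Triple and CpG were thus 1.02-fold apart for Ly86, whereas Tlr12 was held apart by at least 31.4-fold. Over the whole list, 13 of 48 genes were more than 2-fold higher in IFN-γ + αIL-10R than in CpG (3.8% of all genes) and 6 were lower (3.53% of all genes). Against Triple, 8 were higher (6.94% of all genes) and 13 were lower (4.36% of all genes).

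Several members were receptors of the lectin-like family whose probes lay near each other, among genes that were not members. Klrk1 (NKG2D), an activating receptor of NK cells and of some macrophages, had a signal of 568 in IFN-γ + αIL-10R, 87.8 in Triple, and 5.77 in CpG. Klra8, an activating receptor of the Ly49 family, gave 2872, 448, and 263, and a second probe gave 2271, 341, and 204. A further probe of Klra8 was not well above background on any array, and genes of this family are alike in sequence, so the signal may not be of Klra8 alone. Clec9a, a receptor for actin of dead cells known from dendritic cells, gave 1963, 152, and 5.35, and Triple was at least 6.65-fold above CpG. Klrd1 (CD94) was at the limit of detection, with 30.7 in IFN-γ + αIL-10R. In the array's mm9 coordinates, the probes of Clec9a, Klrd1, Klrk1, and Klra8 lay within chr6:129372492-130065304, a span of 692.8 kb with 23 genes on the array. The span was drawn from the first to the last of these members, so its count of members was partly set by that choice. Of its 23 genes, 7 were well above background in IFN-γ + αIL-10R, which the rule required. Of these 7 genes, 4 were members, beside 0.996% of all genes tested. The other three were Gabarapl1 (32902 in IFN-γ + αIL-10R, 38565 in Triple, and 35194 in CpG), Clec7a (22928, 15385, and 13481), and the dim Klra17 (54.0, 13.3, and 6.13), which were chosen for their place.

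Markers of NK cells and dendritic cells were examined beside these receptors. Of 8 NK cell markers, 3 were well above background on every array, and their summed signal was 7852 in IFN-γ + αIL-10R, 3047 in Triple, and 3374 in CpG. Klra8 is itself 1 of the 3, with Nkg7 (4768, 2403, and 2892) and Prf1 (212, 196, and 219). Ncr1, Klrb1c, Eomes, Gzma, and Gzmb were not well above background on any array. Of 9 dendritic cell markers, Clec9a alone was more than 2-fold higher in IFN-γ + αIL-10R than in CpG or in Triple. No other marker of this list differed from CpG by more than 2-fold, and 3 (Ccr7, Zbtb46, and Xcr1) were more than 2-fold lower in IFN-γ + αIL-10R than in Triple. Of the 9 markers, 4 were well above background in IFN-γ + αIL-10R, and Xcr1, Flt3, Itgae, and Cd209a were among those that were not. Asgr2, a subunit of the lectin that takes up desialylated glycoproteins, was the remaining lectin among the members, with 467 in IFN-γ + αIL-10R, 75.1 in Triple, and 89.5 in CpG.

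Ligands and receptors of the TNF family split by how they stood in Triple. Tnfsf13b (BAFF), a survival factor for B cells, gave 1639 in IFN-γ + αIL-10R, 176 in Triple, and 116 in CpG, so that both arrays with CpG were about alike beside the 9.09-fold step to IFN-γ + αIL-10R. Tnfsf14 (LIGHT), a ligand of HVEM and of the lymphotoxin-β receptor, gave 1710 in IFN-γ + αIL-10R, 378 in CpG, and 23.8 in Triple. It was 4.59-fold lower in CpG and at least 63.3-fold lower in Triple, the highest such bound among the members without an outlier mark. Tnfsf8 (CD30 ligand) gave 174, 36.8, and 7.85 in the same order, and was also not well above background in Triple. Tnfrsf18 (GITR), a costimulatory receptor, was well above background in IFN-γ + αIL-10R alone, with 205 there, 18.8 in CpG, and 22.4 in Triple.

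Il12rb2, the signalling chain of the IL-12 receptor, had a signal of 313 in IFN-γ + αIL-10R, 54.6 in Triple, and 30.2 in CpG, the last not well above background. A second probe was well above background throughout with 362, 85.6, and 75.7, and there the gene was 2.04 log2 units above Triple and 2.28 above CpG. Flt1 (VEGF receptor 1), a receptor through which monocytes respond to VEGF and placental growth factor, gave 2117, 416, and 138. A second probe of Flt1 gave 369, 147, and 38.2, and a further probe was not well above background on any array. Both measured probes placed Flt1 in the order IFN-γ + αIL-10R, Triple, CpG.

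Cfhr2, a secreted protein of the complement system, was well above background in IFN-γ + αIL-10R and CpG and not in Triple. It gave 224 in IFN-γ + αIL-10R, 45.7 in CpG, and 8.54 in Triple. Another probe of Cfhr2 gave 3146 in IFN-γ + αIL-10R, 722 in CpG, and 1961 in Triple, which puts Triple above CpG, so the 2 probes disagree on Triple. Over the fixed list of 23 complement genes on the array, 7 were more than 2-fold higher in IFN-γ + αIL-10R than in CpG (3.8% of all genes). Lower than in CpG were 4 of the list (3.53% of all genes), namely C3, C5ar1, Itgam, and Cd55. Against Triple, 3 were higher (6.94% of all genes), among them C4b and Vsig4, and 4 were lower (4.36% of all genes), namely C3, Cfb, C1s, and Cd55.

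Receptors for other ligands and adhesion molecules followed. P2ry12, a receptor for ADP known from platelets and microglia, gave 420 in IFN-γ + αIL-10R, 94.2 in CpG, and 38.6 in Triple. Cd34, a sialomucin of progenitor cells and endothelium, gave 634, 85.4, and 27.1, the last not well above background. Its probe lay in row 1 of the array, and another probe of Cd34 was not well above background on any array. Amica1 (now Jaml), a junctional adhesion molecule of leukocytes, was at 173 in IFN-γ + αIL-10R, 6.19 in CpG, and 29.9 in Triple. Itga3, the integrin α3 chain (46.1, 5.85, and 6.32), and Bai1 (now Adgrb1), a receptor for phosphatidylserine on apoptotic cells (43.6, 9.19, and 8.28), were both under 2-fold above the limit of detection. Of the fixed list on resident macrophages and uptake of apoptotic cells, P2ry12 and Bai1 were the members out of 44.

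Several enzymes and signalling proteins were about equally low in CpG and Triple. Naaa, the lysosomal amidase that degrades palmitoylethanolamide, had a signal of 29553 in IFN-γ + αIL-10R, 6069 in Triple, and 6121 in CpG. Qpct, the glutaminyl cyclase that modifies the N-terminus of chemokines such as CCL2, gave 10802, 1027, and 1542. Itpr1, a calcium release channel of the endoplasmic reticulum, gave 5247, 852, and 740. Triple and CpG were 1.03-fold apart for Naaa, 1.44-fold for Qpct, and 1.20-fold for Itpr1. Galnt3, which starts O-linked glycans (497, 104, and 115), Car11, a carbonic anhydrase-related protein (311, 40.3, and 39.1), and Camk2b, a calmodulin-dependent kinase (423, 61.8, and 96.8), were dimmer and also high in IFN-γ + αIL-10R alone. Pik3ip1, an inhibitor of PI3 kinase, was different, with 1532 in IFN-γ + αIL-10R, 341 in Triple, and 23.1 in CpG, at least 14.9-fold between the last pair. Another probe of Pik3ip1 gave 46.0, 6.96, and 12.4, of which only the first was well above background, so it did not show this gap. Dmpk, a serine/threonine kinase known from muscle, was 7336, 410, and 906. Another probe of Dmpk was far dimmer, with 52.1, 5.83, and 5.51, of which only the first was well above background. Another probe of Camk2b was not well above background on any array. Ctse, an aspartic protease of the endosome, was near the limit of detection in Triple with 219, 31.4, and 19.8.

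Regulators of transcription and RNA included the widest gap between CpG and Triple among members well above background on all 3 arrays. Id1, an inhibitor of basic helix-loop-helix factors that responds to BMP signals, gave 5081 in IFN-γ + αIL-10R, 1228 in CpG, and 186 in Triple, so Triple was 6.35-fold below CpG. Its relative Id3 fell just short of the rule, with 7072, 1764, and 1238. Mex3b, an RNA-binding protein, gave 2812 in IFN-γ + αIL-10R, 192 in Triple, and 212 in CpG, a step of 13.5-fold over the higher of the others. Another probe of Mex3b was far dimmer, with 49.2, 16.1, and 18.2, of which only the first was well above background. Pgbd5, a transposase-derived protein, gave 2108, 271, and 415, and Noxred1, an oxidoreductase-like protein, gave 560, 63.9, and 34.8. Ddx4, an RNA helicase of germ cells, was at 372, 75.2, and 6.64.

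Proteins of the cytoskeleton and of membrane traffic also fell on both sides. Kif5c, a kinesin heavy chain, gave 5224 in IFN-γ + αIL-10R, 985 in Triple, and 422 in CpG. Actr3b, an isoform of an Arp2/3 subunit, gave 483, 88.8, and 95.7. Rab19, a small GTPase, gave 7933 in IFN-γ + αIL-10R, 375 in Triple, and 1245 in CpG, and Arhgap15, a GTPase-activating protein for Rac1, gave 6577, 566, and 1444. Kif5c was thus 2.43-fold higher in Triple than in CpG, whereas Rab19 was 3.19-fold and Arhgap15 2.45-fold lower. Another probe of Arhgap15 was far dimmer, with 29.9 in IFN-γ + αIL-10R, 5.70 in Triple, and 5.28 in CpG. Only the first was well above background, and a further probe was not on any array.

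Among the 39 members well above background in CpG or Triple, the difference between these arrays had a median of 0.024 log2 units and ranged from -3.79 to 5.63. Triple was more than 2-fold above CpG for 9 members, where 4.78% of all genes were, and more than 2-fold below it for 9, where 6.37% were. Those shares are over all 19983 genes, many of them not well above background on either array. Of the 12495 genes well above background in CpG or Triple, 956 were more than 2-fold above CpG in Triple and 1273 below. The remaining 21 lay within 2-fold. The first 9 were Gbp1, Tlr12, Pik3ip1, Clec9a, Plac8, Klrk1, Ddx4, Flt1, and Kif5c. The second 9 included Tnfsf14, Id1, Zfpm1, Rab19, Cd34, Arhgap15, P2ry12, and Dmpk. The rule bounds Triple and CpG only from above and leaves their order free, but all 3 differences come from the same 3 arrays.

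**Figure D3:**
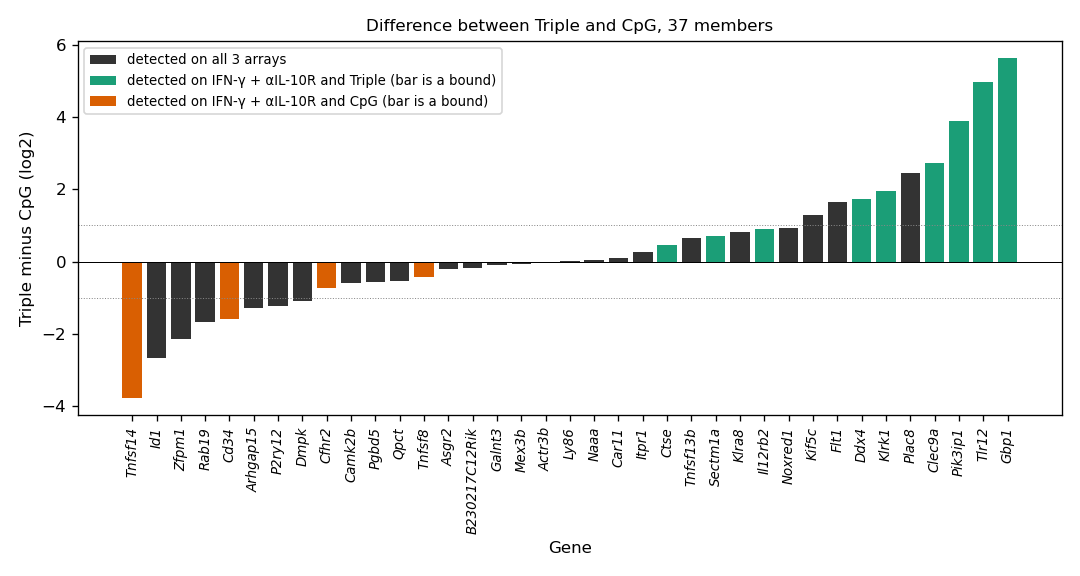
Triple minus CpG (log2) for 37 of the members well above background in at least 1 of these arrays, ordered by value; dotted lines mark 2-fold. Gbp1 (5.63) and Tlr12 (4.97) are the highest, Tnfsf14 (-3.79) is the lowest, and coloured bars are bounds because 1 of the signals was not well above background.

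The 80 members well above background in IFN-γ + αIL-10R alone were mostly dim, with a median signal of 62.2 there over the 79 without an outlier mark. For 35 of them the signal was under 53.3, which is within 2-fold of the lowest signal well above background. With the limit on dim signals, 44 of these 79 were more than 2-fold above both other arrays, and 27 kept the 4-fold distance of the rule. They included 11 receptors for odorants, pheromones, and taste, from the Olfr, Vmn, and Tas2r families. This was 13.3% of the 83 such genes tested, beside 0.996% of all genes tested. The 2 shares are not of like genes. All 11 receptors were well above background in IFN-γ + αIL-10R alone, as were 236 of the genes tested. The other 11706 genes tested were well above background on 2 or 3 arrays. The array held 1368 genes of these receptor families, and only the 83 were well above background in IFN-γ + αIL-10R. Such receptors are known from sensory epithelium, and sequences in these families are alike. The brightest of them, Olfr976, gave 1158 in IFN-γ + αIL-10R, 5.53 in Triple, and 5.10 in CpG, and the next, Vmn2r94, gave 474, 6.83, and 6.18. Ramp2, a partner of the calcitonin receptor-like receptor, was another member of this kind, with 260, 12.4, and 5.38.

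These 80 members were not spread evenly over the array. Of them, 32 (40.0%) had their spot in the first 48 of the 384 rows, where 13.5% of the genes tested had theirs. Of the 39 members well above background on 2 or 3 arrays, 5 (12.8%) did. Dim signals found on 1 array alone were frequent in these rows on every array: 24.0% of the probes well above background on IFN-γ + αIL-10R alone lay there, 20.1% of those on CpG alone, and 25.7% of those on Triple alone. Without the probes in these rows 84 genes met the rule. The part of the place on the array in the result was not tested.

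**Figure D4:**
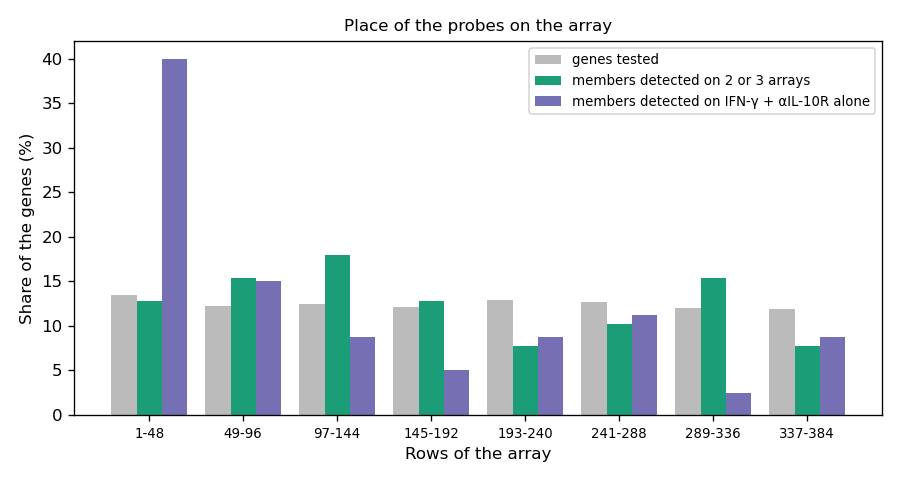
Share (%) of the genes tested, of the 39 members well above background on 2 or 3 arrays, and of the 80 on IFN-γ + αIL-10R alone whose probe lies in each band of 48 rows. The 80 members stand at 40.0% in rows 1 to 48, and the 39 at 12.8%.

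Every member had 1 spot, so a second probe was the only other measurement of a gene. Of the 39 members well above background on 2 or 3 arrays, 15 had another probe, and 13 such probes were well above background in IFN-γ + αIL-10R. All 13 were higher there than in both other arrays, 6 of them by more than 2-fold (46.2%), among them those of Gbp1, Plac8, Klra8, Il12rb2, and Flt1. Of the 80, 41 had another probe, and 13 of these probes were well above background in IFN-γ + αIL-10R. Of these 13, 11 were higher there than in both other arrays, 3 of them by more than 2-fold (23.1%), for Map2, Fut4, and Slc8a1. Over all probes well above background in IFN-γ + αIL-10R the share was 2.4%. Other probes of Plcd4, Kbtbd11, Eef2k, Eaf2, Fut4, Abca17, Slc8a1, and Fsip1 were also well above background in CpG or Triple. Those of Nrg2, Ipcef1, and Map2 were not. For 30 of these 41 genes no other probe was well above background in IFN-γ + αIL-10R. Among these genes, another probe of Ccbe1, Pcdhac2, and Epb4.2 was well above background in CpG, and of Klk1b26 and Pcdh15 in Triple. Each of these probes was brighter there than in IFN-γ + αIL-10R, against the order of the rule. The brightest, that of Ccbe1, gave 162.5 in CpG and 5.77 in IFN-γ + αIL-10R. Fut4, a fucosyltransferase that makes the Lewis x antigen, gave 938 in IFN-γ + αIL-10R, 114 in Triple, and 320 in CpG on its other probe, brighter than on the probe the rule took.

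The largest differences of all came from 2 spots that the scanner software marked as not uniform in IFN-γ + αIL-10R. Plcd4, a phospholipase C, gave 46039 there, 5.67 in Triple, and 5.26 in CpG, but the pixels of the spot had a mean of 48901, a median of 622, and an SD of 87802. Another probe of Plcd4 gave 19169, 16442, and 19772. Zfpm1 (FOG1), a cofactor of GATA factors, gave 323255, 103, and 472, with a pixel SD of 174249. Another probe of Zfpm1 gave 505 in IFN-γ + αIL-10R, 125 in Triple, and 470 in CpG, lower in Triple only. Both genes are counted among the 119. On the scaled signals, which leave such spots out, they have no difference of IFN-γ + αIL-10R from the other arrays, and their difference between Triple and CpG is kept.

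The plot of all genes tested shows where the members lie. By the authors' table, 593 genes (4.97%) met the distance of 2 from Triple and 339 (2.84%) that from CpG. Just inside the rule were Pik3ip1, Id1, Ly86, Cubn, and Tex14, with smaller differences of 2.03 to 2.07. Just outside were Abcg3 (1.997), Gng11 (1.99), Id3 (1.98), Cyb561 (1.98), and Myh10 (1.97). For 49 of the 119 members the smaller difference was under 2.5, so the list has no gap at its edge.

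**Figure D5:**
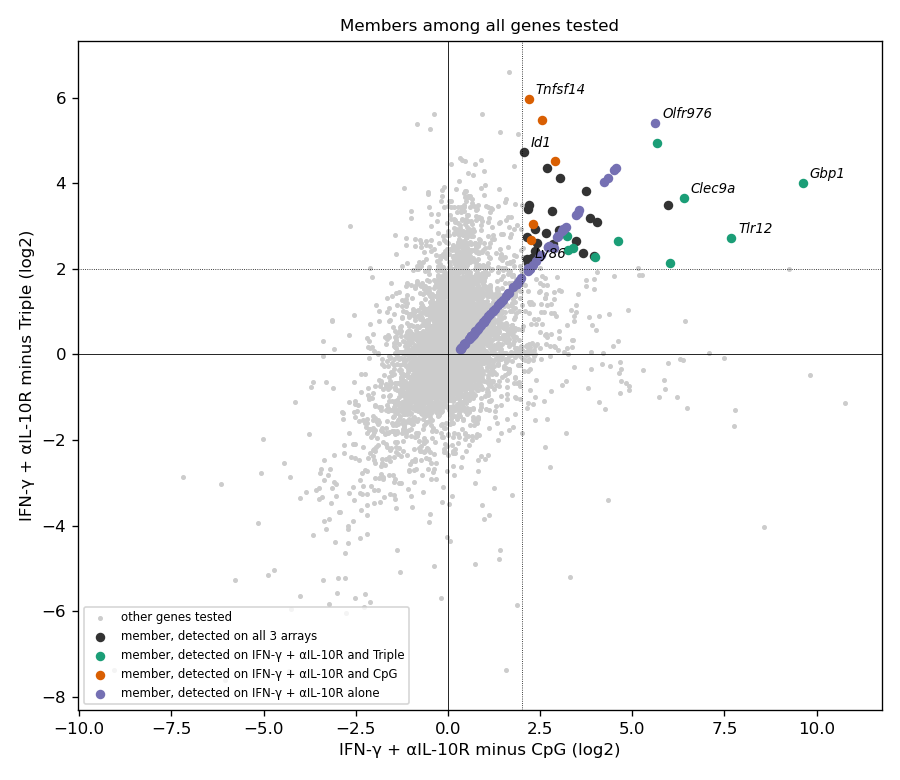
IFN-γ + αIL-10R minus CpG against IFN-γ + αIL-10R minus Triple (log2, scaled signals) for the genes tested (grey, 1 probe per gene) and the members by the arrays on which they were well above background; dotted lines mark 2. Members on IFN-γ + αIL-10R alone form a line because both dim signals were raised to the limit, and they reach below 2 since their differences are lower bounds.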

How the data were processed

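The authors deposited scanner output for each array (Agilent Feature Extraction 10.10.1.1, mm9 probe positions), whose processed signal is an intensity after background subtraction, and a log2 table that equals the log2 processed signal minus a constant per array. The rule was applied to this table. Signals are given as the processed signal without a shift, also for Plcd4 and Zfpm1, whose spots had an outlier mark. Folds and other differences use the processed signal without outlier-marked spots. They were shifted on the log2 scale by the 75th percentile over probes well above background on all 3 arrays. That set was used because under 50% of spots (45.1% on average) were well above background. Genes are RefSeq mRNA probes, 1 per gene name (highest mean). For 118 of 119 members a current symbol was found by accession in RefSeq (GRCm38.p6). No columns of the table were left unused.

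The members and gene lists were chosen with earlier results of these data known. Named genes are the 20 largest smaller differences among members on all 3 arrays, the 10 brightest, up to 5 per list, the 5 genes on either side of the threshold, and the 5 highest and lowest in Triple minus CpG. Sectm1a, Il12rb2, Tnfsf14, Tnfsf8, Tnfrsf18, Cfhr2, Cd34, Galnt3, Ddx4, Olfr976, Vmn2r94, Ramp2, Map2, Fut4, Slc8a1, and the list genes given in parentheses were chosen after their values were seen. Values of some genes are not reported here. The code was tested on simulated arrays. Software was Python 3.11.15, numpy 2.4.6, pandas 2.3.3, R 4.3.3, and limma 3.58.1.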

Additional observations from a re-analysis of the deposited data

How the results depend on the processing

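No paired analysis was possible because no condition had a second array. The count of 119 members kept all of them under each of 6 other scalings (119 to 138 genes). It was 32 with normexp background correction (offset 50), of which 30 were among the 119, 62 with dim signals raised to the limit, 24 when all 3 arrays had to be well above background, 275 with any accession, and 209 or 40 with a threshold of 1.5 or 3. The median difference from Triple was 2.29 with spike-in scaling, 1.07 with normexp, 2.91 over members on all 3 arrays, 2.98 without the limit on dim signals, 1.44 with the mean of a gene's probes, and 2.27 without the first 48 rows, a setting added after the data were seen. That from CpG was 1.21 with normexp, 2.69 over members on all 3 arrays, 2.9999 without the limit, and 1.55 with the mean of probes. Triple minus CpG had a median of 0.21 over all members, where most are at the limit on both arrays, and -0.079 over members on all 3. Among the named genes, none of 807 recomputed differences changed sign against a difference of more than 2-fold. The rule had chosen large differences from IFN-γ + αIL-10R, so the lack of a change of sign says little about those. Of the 807, 138 moved by more than the SD that repeat spots of a probe on an array give a difference (0.118 log2 units). These were 77 of 101 with normexp, by up to 2.09, 25 of 101 with the mean of probes, by up to 1.68, and 36 of 101 with spike-in scaling, by up to 0.148. The difference of IFN-γ + αIL-10R from Triple was 1.15 for Amica1 with normexp, and for Arhgap15 it was 1.83 with the mean of probes and 3.50 with the probe used here. Low signal over background and 1 array per condition limit all of these values.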
